A study of Mus musculus with 16 samples.

Results

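Glul, Slc1a2, Lhpp, Oat, Rhbg, Cyp1a2, Axin2, Rnf43, Lgr5 and Tbx3 are genes of the pericentral hepatocyte programme that depends on Wnt signalling. They were taken by symbol from the deposited gene table, and all 10 of the 10 named genes were found among its 27288 gene identifiers. Their levels are described over 16 liver RNA sequencing libraries from C57BL/6 mice aged 8 to 10 weeks, in 4 groups of 4. The groups were livers labelled knockout for DRP1 after ethanol, wild-type livers after ethanol, livers labelled knockout on the control treatment and wild-type livers on the control treatment. DRP1 is the GTPase of mitochondrial fission, encoded by Dnm1l. Ethanol was given by the Gao-Binge model, a period of feeding on an ethanol diet that ends with a single large dose of ethanol. The labels call the deletion liver-specific and name neither the Cre driver nor the deleted exon. Nothing in them ties a library to a separate mouse, and a p-value here therefore measures library-to-library spread, which may in part be technical.

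In the liver lobule, endothelial cells of the central vein secrete Wnt ligands and R-spondin, and hepatocytes beside the vein respond through beta-catenin and the TCF/LEF transcription factors. The response turns on the genes of pericentral metabolism, among them glutamine synthesis, and holds periportal genes down. It also turns on genes of the pathway itself. Axin2 and Rnf43 damp the signal, and Lgr5, a receptor for R-spondin, sustains it. RNA here came from whole liver, so fewer cells of a type and less RNA per cell cannot be told apart.

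The libraries held 11425136 to 13864862 reads, and values are normalised reads, that is, read counts divided by a size factor for each library. All 10 genes passed the filter of a mean value of at least 10, with between 10 reads (Lgr5 and Rhbg) and 17455 reads (Glul) in a library, so Lgr5 and Rhbg carry the most counting error. Total Dnm1l was 803 ± 99.3 normalised reads in ethanol livers labelled knockout and 743 ± 38.4 in ethanol wild-type livers, and 642 ± 72.7 against 663 ± 56.1 on the control diet (mean ± SD, n = 4 each). The total was not lower on ethanol, with a fitted fold of 1.08, and was 0.967 times the wild-type level on the control diet (limma adjusted p = 0.59 and 0.825). A total over all exons does not check the labels where only some exons are deleted, so the livers are called labelled knockout throughout. Defining hepatocyte markers were high in every library, their 9 genes summing to between 1035365 and 1949269.5 normalised reads. In the ethanol group labelled knockout, library 1 held pancreatic transcripts and library 4 blood and fat transcripts, and comparisons with this group were also run without both of these libraries. Ethanol libraries 1 and 2 of both genotypes also stood apart from ethanol libraries 3 and 4, which bears on the genes of the pathway itself below.

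The promoters of Glul, Slc1a2, Oat and Cyp1a2 are shown because these genes were lower in livers labelled knockout on ethanol, and TCF/LEF factors act at promoters and enhancers of the programme. Each window runs from 250 bases before to 50 bases after the RefSeq start on GRCm38.p6, and windows for 6 of the 10 genes were in the table: those of Glul, Slc1a2, Oat, Cyp1a2, Rnf43 and Axin2. Capitals mark the core letters of the TCF/LEF motif, CTTTGAT or CTTTGAA, searched on both strands. The windows are chr1:153899679-153899978 on the plus strand for Glul, chr2:102706188-102706487 on the plus strand for Slc1a2, chr7:132576349-132576648 on the minus strand for Oat and chr9:57683606-57683905 on the minus strand for Cyp1a2, each written 5′ to 3′ on the gene's strand.
Glul: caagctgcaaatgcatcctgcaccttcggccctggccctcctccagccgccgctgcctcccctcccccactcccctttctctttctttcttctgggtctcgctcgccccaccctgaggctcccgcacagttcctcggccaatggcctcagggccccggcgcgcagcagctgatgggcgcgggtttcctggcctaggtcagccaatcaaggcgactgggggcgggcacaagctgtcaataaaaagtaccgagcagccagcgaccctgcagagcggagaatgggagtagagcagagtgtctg
Slc1a2: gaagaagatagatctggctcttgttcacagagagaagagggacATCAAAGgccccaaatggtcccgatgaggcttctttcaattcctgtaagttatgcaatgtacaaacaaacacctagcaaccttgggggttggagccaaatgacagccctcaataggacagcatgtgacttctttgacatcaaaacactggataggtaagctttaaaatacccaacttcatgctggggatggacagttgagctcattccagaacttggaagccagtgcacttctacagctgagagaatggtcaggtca
Oat: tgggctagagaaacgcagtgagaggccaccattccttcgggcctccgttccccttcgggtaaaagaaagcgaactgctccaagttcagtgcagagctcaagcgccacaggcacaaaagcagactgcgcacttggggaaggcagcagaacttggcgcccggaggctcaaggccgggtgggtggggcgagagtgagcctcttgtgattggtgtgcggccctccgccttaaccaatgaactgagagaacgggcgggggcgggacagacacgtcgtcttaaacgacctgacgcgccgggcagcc
Cyp1a2: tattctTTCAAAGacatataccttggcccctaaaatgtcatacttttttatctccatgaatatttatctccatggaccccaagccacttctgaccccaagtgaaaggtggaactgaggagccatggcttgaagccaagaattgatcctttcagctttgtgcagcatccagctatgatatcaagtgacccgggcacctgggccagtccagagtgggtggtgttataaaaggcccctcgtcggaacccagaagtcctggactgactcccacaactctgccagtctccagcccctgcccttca

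The Slc1a2 window held CTTTGAT on the opposite strand at position -207 from the start, and the Cyp1a2 window held CTTTGAA on the opposite strand at position -244. The letters did not occur in the windows of Glul, Oat, Rnf43 and Axin2. Of 32851 RefSeq promoter windows of the same length, 8.65% held the motif. The window for Slc1a2 lies inside the gene as GENCODE draws it, which starts upstream. The core GCGTG of the aryl hydrocarbon receptor (AHR) motif, searched on both strands, was in 32.4% of the windows and not in that of Cyp1a2. A match is a description of letters and not a bound site.

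Levels per kb of exon were highest for Glul, Oat and Cyp1a2 in all groups and lowest for Lgr5. In wild-type livers on the control diet the order was Glul, Oat, Cyp1a2, Lhpp, Slc1a2, Tbx3, Rnf43, Axin2, Rhbg and Lgr5, from 4185 ± 976 to 9.18 ± 2.39 normalised reads per kb (mean ± SD, n = 4). Glul and Oat, at 4064 ± 922 per kb, did not differ beyond their spread there, nor did Rhbg, at 9.90 ± 4.83 per kb, and Lgr5. Ethanol livers labelled knockout were led by Cyp1a2 at 3024 ± 532 per kb, followed by Oat at 2421 ± 863 and Glul at 1777 ± 276, and the ranges of Cyp1a2 and Oat overlapped. In ethanol wild-type livers Oat was at 5952 ± 1053 per kb, Cyp1a2 at 5629 ± 819 and Glul at 3832 ± 837, again with overlapping ranges of Oat and Cyp1a2. On the control diet, livers labelled knockout had Glul at 2692 ± 307, Cyp1a2 at 2421 ± 687 and Oat at 2126 ± 413 per kb, with overlapping ranges.

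**Figure D1:**
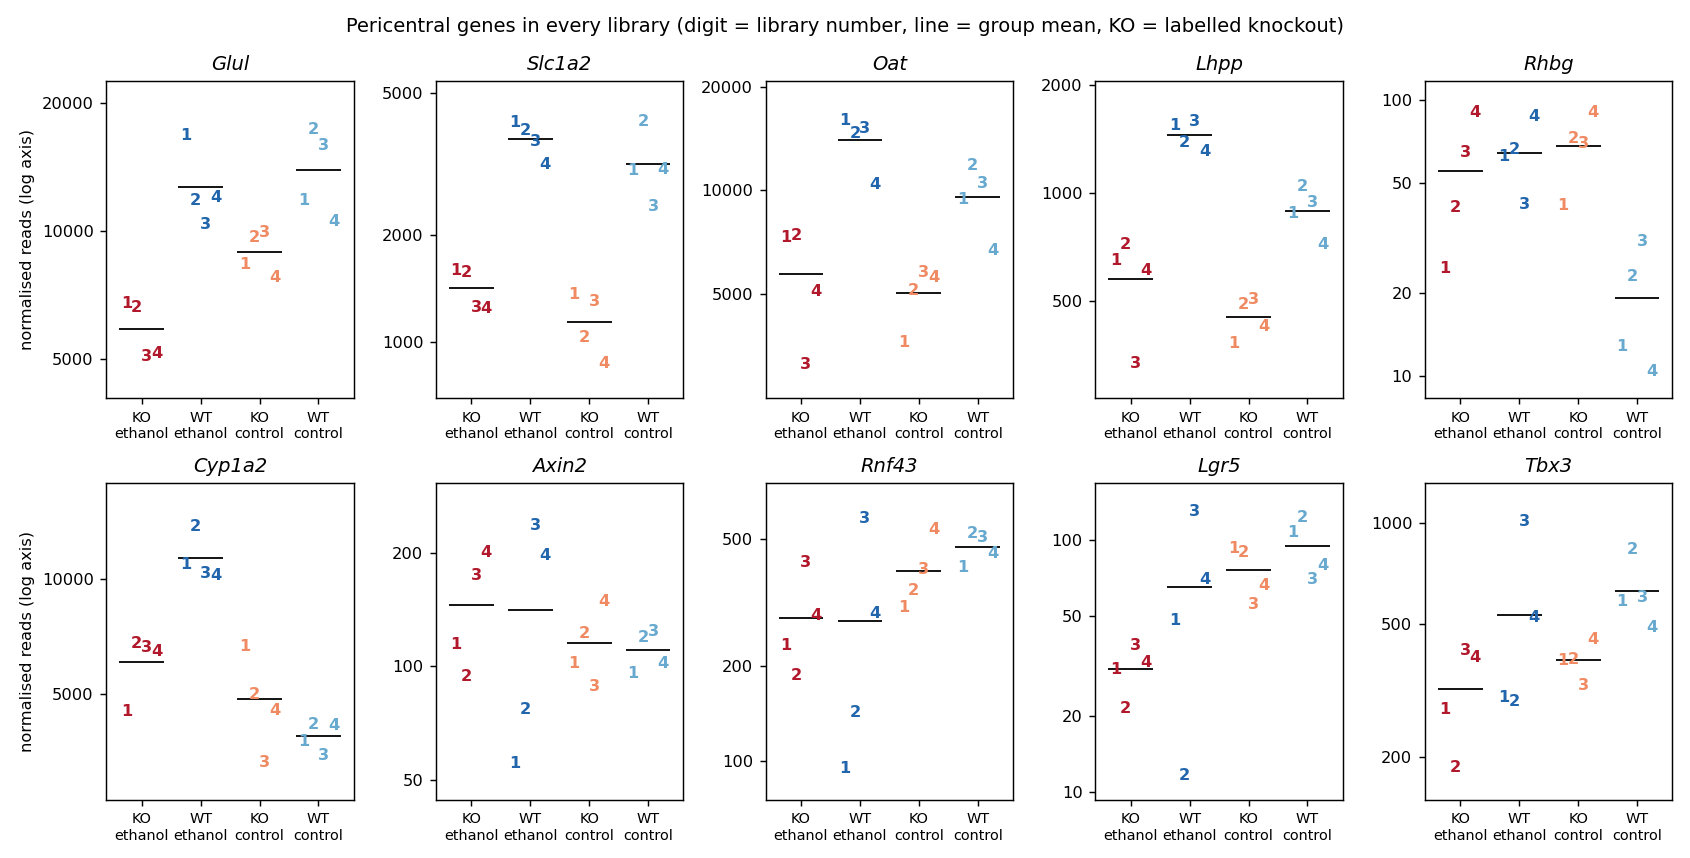
Normalised reads of each of the 10 genes in every library, on log axes, with 1 panel a gene. Digits are library numbers, lines are group means, and KO means labelled knockout. Glul, Slc1a2, Lhpp and Oat lie lower in both KO groups than in their WT groups, with no overlap.

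The livers labelled knockout were compared with wild-type livers on each diet. On ethanol, 5 of the 10 genes were lower (Glul, Slc1a2, Lhpp, Oat and Cyp1a2) and 0 were higher. By the same call, 9.88% of the 13256 genes tested changed, 3.75% lower and 6.13% higher (limma, Benjamini-Hochberg adjusted p under 0.05). The control diet gave 4 lower genes (Glul, Slc1a2, Lhpp and Oat) and 1 higher gene (Rhbg), against 11.6% of all genes changed, 5.24% lower and 6.4% higher. The median log2 difference of the 10 genes was -0.78 on ethanol and -0.46 on the control diet, against -0.02 and -0.01 over all genes tested. The fitted folds compare values after 1 is added to each. The groups did not overlap for 5 lower genes and 0 higher genes on ethanol, against 7.38% and 8.36% of all genes, and for 5 lower genes (Tbx3 was the fifth) and 1 higher gene on the control diet, against 8.72% and 8.68%.

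Glul encodes glutamine synthetase, which fixes ammonia left over by periportal urea synthesis and is made by a thin ring of hepatocytes round the central vein. Its gene lies at chr1:153899944-153909723 on the plus strand (GENCODE M21 on GRCm38, as for the genes below). On ethanol Glul had 6764, 6625, 5068 and 5157 normalised reads in livers labelled knockout, against 16759.8, 11787, 10360.2 and 12034 in wild-type livers. Control-diet levels were 8374, 9683, 9922 and 7806 in livers labelled knockout, against 11824, 17352, 15914 and 10539.7 in wild-type livers. All livers labelled knockout were below all wild-type livers on both diets, with the lowest values after ethanol. The fitted fold was 0.467 on ethanol (95% interval 0.361 to 0.604, limma adjusted p = 0.000512) and 0.654 on the control diet (95% interval 0.506 to 0.845, limma adjusted p = 0.0319). The control-diet call was lost without wild-type library 2 or 3 or library 1 or 4 labelled knockout, with limma adjusted p of 0.0954, 0.089, 0.0675 and 0.0857, and with no filter (0.0507). The log2 difference was then -0.50, -0.54, -0.58, -0.55 and -0.61. Ethanol lowered Glul within the livers labelled knockout to 0.657 times the control-diet level (95% interval 0.508 to 0.85, limma adjusted p = 0.0233), whereas in wild-type livers the fold was 0.92 (95% interval 0.711 to 1.19, limma adjusted p = 0.62). The difference between these 2 ethanol effects was -0.48 on the log2 scale and was not called (limma adjusted p = 0.415). The fall in livers labelled knockout was not called without control-diet library 2 (0.0659), ethanol library 3 (0.0655) or ethanol library 4 (0.0703), without ethanol libraries 1 and 4 together (0.105), or with ethanol libraries 1 and 2 alone (0.185), all limma adjusted p. The log2 effects were then -0.57, -0.54, -0.55, -0.62 and -0.41, against -0.61 with all libraries.

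Slc1a2 encodes a plasma membrane glutamate transporter that in liver is found in the same pericentral cells as glutamine synthetase. The gene lies at chr2:102658659-102790784 on the plus strand. After ethanol it had 1594, 1571, 1254 and 1246 normalised reads in livers labelled knockout, against 4131, 3941, 3673 and 3163 in wild-type livers. Control-diet values were 1362, 1031, 1298 and 871 in livers labelled knockout, against 3034, 4167, 2410.4 and 3046 in wild-type livers. The groups did not overlap on either diet. The fold was 0.38 on ethanol (95% interval 0.298 to 0.483, limma adjusted p = 2.3e-05) and 0.362 on the control diet (95% interval 0.284 to 0.461, limma adjusted p = 1.69e-05). These were the smallest adjusted p-values of the 10 genes on both diets, and the call held in all 21 alternatives on ethanol and all 18 on the control diet. Ethanol gave a fold of 1.25 in livers labelled knockout and 1.19 in wild-type livers, neither called (limma adjusted p = 0.175 and 0.237).

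Oat encodes the mitochondrial ornithine aminotransferase, which links ornithine to glutamate and proline. Oat lies at chr7:132557478-132576398 on the minus strand. On ethanol Oat had 7270.3, 7399, 3112 and 5076 normalised reads in livers labelled knockout, against 15985, 14621, 15167 and 10418 in wild-type livers. Values on the control diet were 3616, 5101, 5762 and 5589 in livers labelled knockout, against 9379.7, 11826, 10467 and 6691 in wild-type livers. The groups did not overlap on either diet, and ethanol library 3 labelled knockout was the lowest of its group. The fold was 0.39 on ethanol (95% interval 0.27 to 0.561, limma adjusted p = 0.00174) and 0.526 on the control diet (95% interval 0.365 to 0.758, limma adjusted p = 0.023). The control-diet call was lost without wild-type library 1, 2 or 3 or library 1 labelled knockout, with limma adjusted p of 0.0525, 0.0672, 0.0593 and 0.0692 and log2 differences of -0.93, -0.82, -0.87 and -0.78. After ethanol the fold was 1.09 in livers labelled knockout and 1.48 in wild-type livers, neither called (limma adjusted p = 0.75 and 0.086). In wild-type livers a rise was called without ethanol library 4 (0.0472) and with ethanol libraries 1 and 2 alone (0.0202), both limma adjusted p. That pair was chosen after the data were seen, so its fit is a description.

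Lhpp encodes a phosphatase that acts on phosphohistidine and phospholysine. It is the neighbour of Oat on chromosome 7, at chr7:132610638-132706420 on the plus strand, 34239 bases away, with 1 gene of the table between them, Nkx1-2, which was near 0. On ethanol Lhpp had 647, 716, 334 and 604 normalised reads in livers labelled knockout, against 1539, 1383, 1574 and 1305 in wild-type livers. Control-diet livers labelled knockout had 380.2, 489, 502 and 424, against 872, 1038, 937 and 717 in wild-type livers. The groups did not overlap on either diet, and library 3 labelled knockout was again the lowest after ethanol. The fold was 0.383 on ethanol (95% interval 0.292 to 0.503, limma adjusted p = 8.88e-05) and 0.506 on the control diet (95% interval 0.385 to 0.664, limma adjusted p = 0.00267), and both calls held in every alternative run. Ethanol raised Lhpp 1.64-fold in wild-type livers (95% interval 1.25 to 2.15, limma adjusted p = 0.00661), and the fold was 1.24 in livers labelled knockout (limma adjusted p = 0.255). In the latter a rise was called without ethanol library 3 (0.0109) and with ethanol libraries 1 and 2 alone (0.0167), both limma adjusted p. That pair was chosen after the data were seen, so its fit is a description. The difference between the ethanol effects was -0.40 on the log2 scale and was not called (limma adjusted p = 0.527).

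Oat and Lhpp varied together within groups. Their deviations from the group means had a Pearson correlation of 0.92 over 16 libraries, and of 0.90 over the 8 control-diet libraries. For Glul with Oat the values were 0.63 and 0.71, and for Glul with Lhpp 0.59 and 0.88. These libraries share their size factors and, within a group, their group mean, so the correlations are descriptions. The annotated gene Fgfr2, at a mean of 271 normalised reads, overlaps Oat on the same strand and Lhpp on the opposite one, so some reads of these genes are uncertain.

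Rhbg encodes an ammonium transporter of the cell membrane. It lies at chr3:88242874-88254709 on the minus strand. Values after ethanol were 24.6, 40.9, 64.9 and 90.5 normalised reads in livers labelled knockout, against 62.7, 66.4, 41.8 and 87.1 in wild-type livers. Control-diet levels were 41.4, 72.9, 70.0 and 90.1 in livers labelled knockout, against 12.8, 22.9, 30.6 and 10.4 in wild-type livers. The wild-type control group had the lowest mean, did not overlap with the livers labelled knockout on the same diet or with ethanol wild-type livers, and overlapped with ethanol livers labelled knockout. The fold for livers labelled knockout was 3.62 on the control diet (95% interval 2.06 to 6.36, limma adjusted p = 0.00518) and 0.795 on ethanol, which was not called (limma adjusted p = 0.656). Ethanol raised Rhbg 3.42-fold in wild-type livers (95% interval 1.94 to 6.01, limma adjusted p = 0.00186), and gave a fold of 0.751 in livers labelled knockout (limma adjusted p = 0.474). The difference between the ethanol effects was -2.19 on the log2 scale (limma adjusted p = 0.101).

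Cyp1a2 encodes a cytochrome P450 that oxidises caffeine and aromatic amines and is induced through AHR. The gene lies at chr9:57676937-57683703 on the minus strand. After ethanol it had 4493, 6769, 6636 and 6451 normalised reads in livers labelled knockout, against 10954, 13757, 10377 and 10233 in wild-type livers. Control-diet values were 6649, 5004, 3310.1 and 4527 in livers labelled knockout, against 3770.4, 4170.3, 3449 and 4147 in wild-type livers. All ethanol wild-type livers were above every other library, and the control-diet groups overlapped. Ethanol raised Cyp1a2 2.90-fold in wild-type livers (95% interval 2.23 to 3.78, limma adjusted p = 9.75e-06), against a fold of 1.27 in livers labelled knockout (limma adjusted p = 0.183). Livers labelled knockout had 0.534 times the wild-type level on ethanol (95% interval 0.411 to 0.694, limma adjusted p = 0.00334) and 1.22 times on the control diet (limma adjusted p = 0.341). The ethanol call was lost without ethanol libraries 1 and 4 labelled knockout, where the log2 difference was -0.75 (limma adjusted p = 0.0652), and with ethanol libraries 3 and 4 alone, where it was -0.66 (0.183).

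The 4 remaining genes belong to the pathway and its transcriptional output, and none was called between genotypes on either diet. Axin2 is a scaffold of the complex that degrades beta-catenin and is widely used as a readout of Wnt signalling. It lies at chr11:108920349-108950783 on the plus strand. Values after ethanol were 114, 94.0, 174 and 200.2 normalised reads in livers labelled knockout, against 55.3, 76.9, 236 and 196 in wild-type livers. Control-diet levels were 102, 122, 88.4 and 149 in livers labelled knockout, against 95.6, 119, 124 and 102 in wild-type livers. The groups overlapped on both diets. The fold was 1.17 on ethanol (95% interval 0.687 to 2.0) and 1.03 on the control diet (95% interval 0.605 to 1.76), with limma adjusted p of 0.76 and 0.958. On ethanol the log2 difference ranged from -0.20 to 0.66 over all 21 alternatives and stayed uncalled. Whether the genotype effects of Axin2 and Glul differ was not tested.

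Rnf43 is a membrane ubiquitin ligase that removes Frizzled receptors from the cell surface, and lies at chr11:87662722-87735539 on the plus strand. On ethanol it had 231, 187, 424 and 289 normalised reads in livers labelled knockout, against 94.6, 142, 581 and 293 in wild-type livers. Values on the control diet were 305, 345, 401 and 539 in livers labelled knockout, against 409, 523, 507 and 452 in wild-type livers. Wild-type ethanol libraries 1 and 2 were the lowest of all 16, and library 3 the highest. The genotype fold was 1.23 on ethanol and 0.826 on the control diet (limma adjusted p = 0.704 and 0.719). Ethanol gave 0.695 times the control-diet level in livers labelled knockout, which was not called (limma adjusted p = 0.373), and 0.467 times in wild-type livers, a called fall (95% interval 0.261 to 0.835, limma adjusted p = 0.0382). The groups behind that call overlap, and it was lost in 11 of 20 alternatives, among them edgeR (adjusted p = 0.151) and DESeq2 (0.175). Without wild-type control library 1, 2, 3 or 4 the limma adjusted p was 0.0544, 0.0801, 0.0758 and 0.0646. Without wild-type ethanol library 1 or 2 it was 0.142 and 0.116, with log2 differences of -0.70 and -0.89.

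Lgr5 is a receptor for R-spondins, at chr10:115450311-115587780 on the minus strand. On ethanol it had 30.5, 21.5, 38 and 32.7 normalised reads in livers labelled knockout, against 47.9, 11.7, 129 and 69.7 in wild-type livers. Levels on the control diet were 92.2, 89.0, 55.2 and 65.7 in livers labelled knockout, against 106, 122, 69.2 and 78.9 in wild-type livers. Within livers labelled knockout, all ethanol libraries were below all control-diet libraries, while the wild-type groups overlapped. The ethanol fold was 0.415 in livers labelled knockout (95% interval 0.207 to 0.831, limma adjusted p = 0.0701) and 0.526 in wild-type livers (95% interval 0.262 to 1.05, limma adjusted p = 0.136), neither called. With DESeq2 the fall in livers labelled knockout was called (adjusted p = 0.0161), as it was in the limma fit of only the groups compared (0.00388). The wild-type fall was called without ethanol library 3, at -1.40 on the log2 scale (limma adjusted p = 0.0158). Between genotypes the fold was 0.636 on ethanol and 0.807 on the control diet (limma adjusted p = 0.433 and 0.738), and without wild-type ethanol library 2 the ethanol difference was called at -1.30 (limma adjusted p = 0.0143).

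Tbx3 encodes a T-box transcription factor that acts downstream of beta-catenin in liver, and lies at chr5:119670669-119684724 on the plus strand. On ethanol it had 278, 187, 417 and 397 normalised reads in livers labelled knockout, against 302, 294, 1011 and 521 in wild-type livers. Values on the control diet were 389, 392, 327 and 448 in livers labelled knockout, against 582, 829, 598 and 486 in wild-type livers. The control-diet groups did not overlap, as for 8.72% of the genes tested in that direction, and the ethanol groups overlapped. The fold was 0.656 on ethanol (limma adjusted p = 0.262) and 0.632 on the control diet (limma adjusted p = 0.207), neither called, though the control-diet difference was called in the fit of only the groups compared (limma adjusted p = 0.0284). Without wild-type ethanol library 3 the ethanol effect in wild-type livers was called at -0.77 on the log2 scale (limma adjusted p = 0.0275), against -0.40 with all libraries. The antisense transcript Tbx3os1 overlaps Tbx3 and had 2.66% to 5.46% of the Tbx3 value in ethanol livers labelled knockout, 2.48% to 6.50% in ethanol wild-type livers, 4.79% to 18.4% in control-diet livers labelled knockout and 15.6% to 26.3% in control-diet wild-type livers. Without a stated strand setting reads of the pair cannot be told apart, and their part in the Tbx3 differences was not tested.

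**Figure D2:**
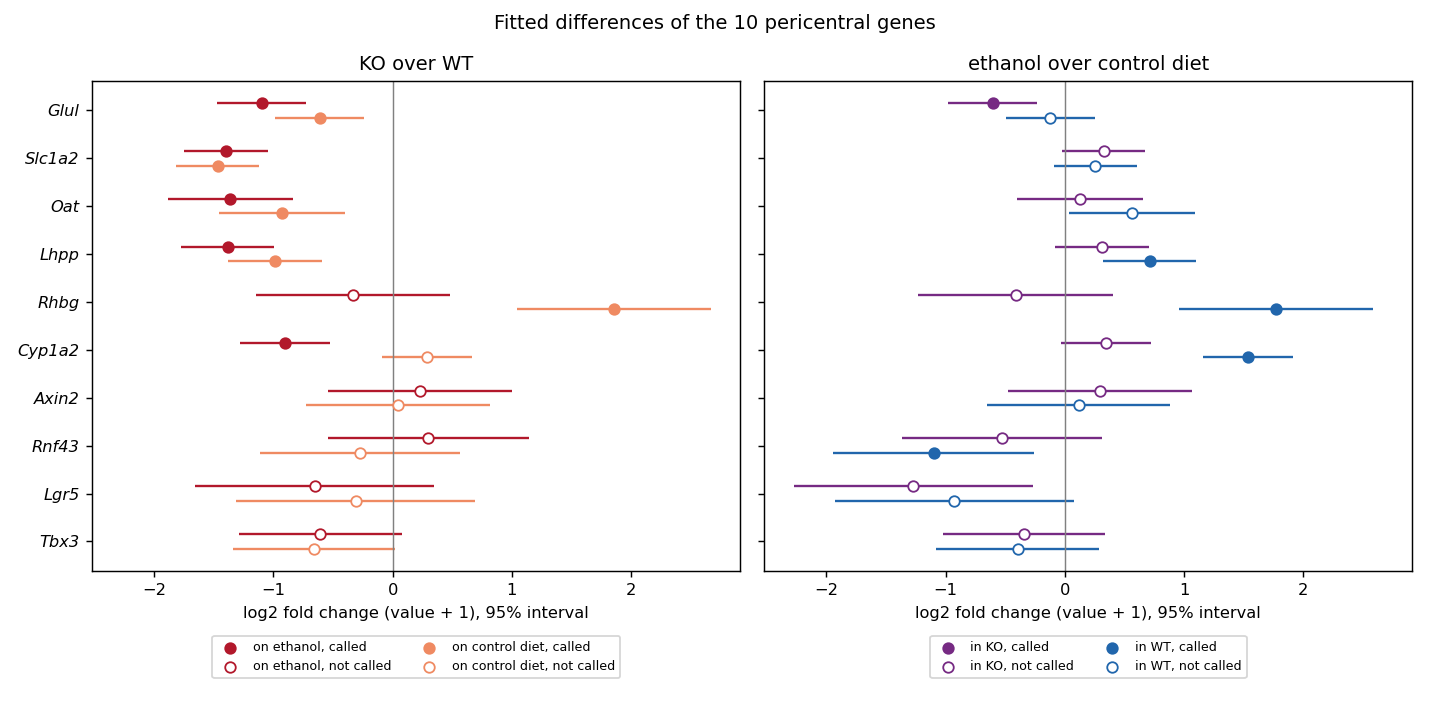
Fitted log2 differences of the 10 genes with 95% intervals, KO (labelled knockout) over WT on each diet at left and ethanol over control diet in each genotype at right. Filled points were called at a limma adjusted p under 0.05. Between genotypes, Slc1a2, Lhpp, Oat and Glul lie left of 0 on both diets, and the intervals of Axin2, Rnf43, Lgr5 and Tbx3 span 0.

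The ethanol effect was counted in each genotype. In livers labelled knockout 1 of the 10 genes was lower, Glul, and 0 were higher, where 19.2% of all genes tested changed, 9.01% lower and 10.2% higher (limma). In wild-type livers 3 were higher (Cyp1a2, Rhbg and Lhpp) and 1 was lower (Rnf43), where 38% of all genes changed, 18.9% higher and 19% lower, a share like that of the 10. The median log2 ethanol effect of the 10 genes was -0.11 in livers labelled knockout and 0.19 in wild-type livers, against -0.01 over all genes in each. The diets did not overlap for 2 lower genes (Glul and Lgr5) and 0 higher genes in livers labelled knockout, against 11.3% and 11.7% of all genes, and for 3 higher genes and 0 lower genes in wild-type livers, against 17.7% and 17.4%. The difference between the ethanol effects was called for 0 of the 10 genes by limma and 0 by edgeR, and for 2 by DESeq2, Cyp1a2 (adjusted p = 0.00132) and Rhbg (0.0157). Those 2 genes also had an unadjusted limma p under 0.05, and 0.347% of all genes tested were called by limma, 0.143% higher and 0.204% lower. Cyp1a2 differed by -1.19 on the log2 scale (SE 0.25, limma adjusted p = 0.0548), and was called without wild-type ethanol library 3 (0.0338) or without control-diet library 3 labelled knockout (0.0167). Rhbg was called without wild-type ethanol library 3 (limma adjusted p = 0.0419). The comparisons of each genotype and diet share their groups of libraries, so their results are not independent of each other.

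Axin2, Rnf43, Lgr5 and Tbx3 had ethanol libraries 3 and 4 above libraries 1 and 2 in both genotypes. In ethanol livers labelled knockout, the mean of libraries 3 and 4 over that of libraries 1 and 2 was 1.80 for Axin2, 1.70 for Rnf43, 1.36 for Lgr5 and 1.75 for Tbx3. The ethanol wild-type ratios were 3.27, 3.69, 3.34 and 2.57 in the same gene order, and the control-diet ratios of the 4 genes ranged between 0.647 and 1.45. For Rhbg the ratio was 2.37 in livers labelled knockout and 0.998 in wild-type livers, and for Cyp1a2 1.16 and 0.834. Glul, Slc1a2, Lhpp and Oat had ratios of 0.558 to 0.79 in livers labelled knockout and 0.784 to 0.985 in wild-type livers. The labels give no batch or date for these libraries, and the split was chosen after the data were seen. Opposite effects of its parts can follow from that choice alone, so the fits of its parts, above and below, describe the split and do not test it. With ethanol libraries 3 and 4 alone, Axin2 was higher after ethanol in wild-type livers by 0.97 on the log2 scale (limma adjusted p = 0.00533), and with libraries 1 and 2 alone the log2 effect was -0.74 (0.0169). In livers labelled knockout, libraries 1 and 2 alone gave called falls for Rnf43 (-0.90), Lgr5 (-1.49) and Tbx3 (-0.76), and libraries 3 and 4 alone a called rise for Axin2 (0.72) and a called fall for Lgr5 (-1.05). In wild-type livers, for the genes of the 4 other than Axin2, libraries 1 and 2 alone gave falls that were all called, -2.01 for Rnf43, -1.90 for Lgr5 and -1.04 for Tbx3, and libraries 3 and 4 alone gave -0.19, 0.05 and 0.25, none called. Whether this split is a batch was not tested.

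Deviations from the group means were compared among the 4 genes. The Pearson correlation was 0.91 for Axin2 with Rnf43, 0.89 for Axin2 with Tbx3 and 0.89 for Rnf43 with Tbx3 over 16 libraries, and 0.66, 0.65 and 0.42 over the 8 control-diet libraries. Without the wild-type ethanol libraries the values over the other 12 libraries were 0.76, 0.85 and 0.73. Lgr5 gave 0.62 with Axin2, 0.59 with Rnf43 and 0.77 with Tbx3 over 16 libraries, 0.39, 0.17 and 0.70 over 12, and 0.04, -0.44 and 0.56 over the 8 control-diet libraries.

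**Figure D3:**
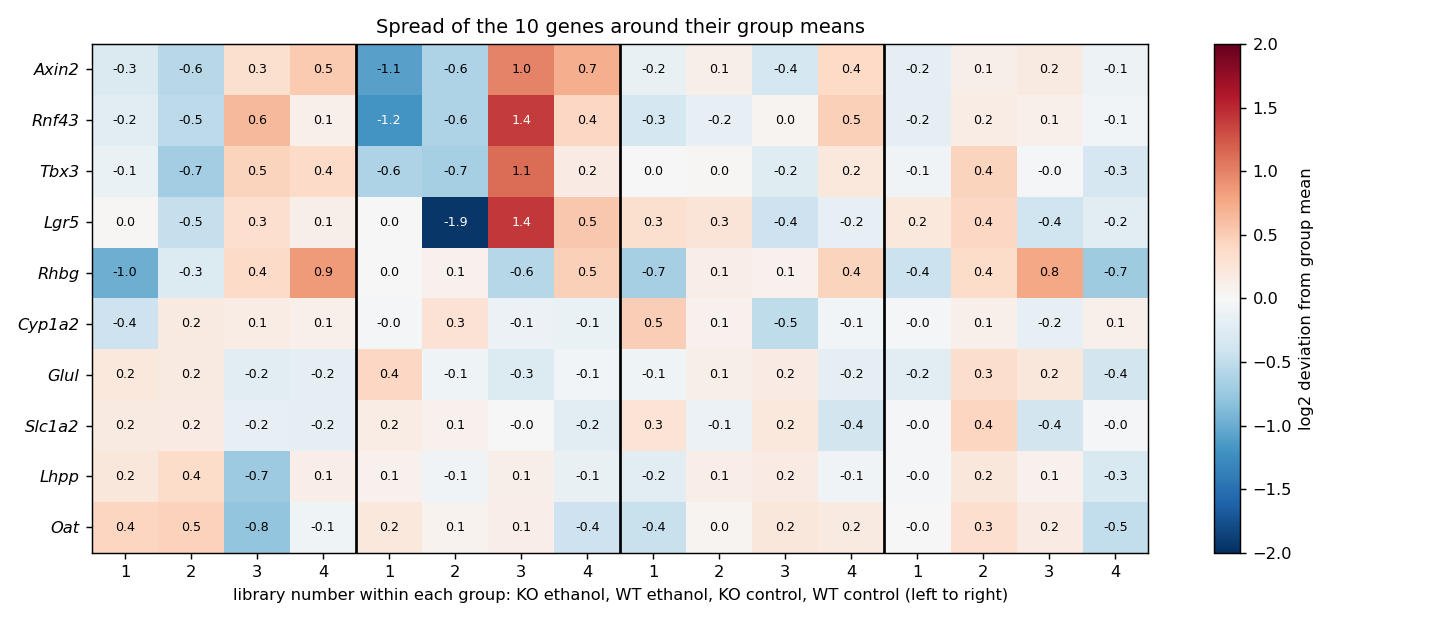
Deviation of each of the 10 genes from its group mean on the log2 scale, with 1 column a library and KO (labelled knockout) groups left of their WT groups. Axin2, Rnf43 and Tbx3 are above their group mean in WT ethanol libraries 3 and 4 and below it in libraries 1 and 2, Lgr5 is lowest in WT ethanol library 2, and Oat and Lhpp share the low value of KO ethanol library 3.

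Upstream of these genes stand the Wnt ligands and the proteins of their release. Of the 8 tested on ethanol, 0 were called between genotypes by limma, edgeR or DESeq2, and 0 had an unadjusted p under 0.05. Among all genes limma called 9.88% there and 11.6% on the control diet. On the control diet 1 was lower, Porcn, which attaches the lipid that Wnt proteins need, at 22.2 ± 9.84 normalised reads in livers labelled knockout and 41.6 ± 4.10 in wild-type livers. That call was lost in 7 of 17 alternatives, 6 of which each left out 1 library (all but libraries 1 and 3 labelled knockout), and the log2 difference ranged over -1.20 to -0.69. On that diet 3 of the 8 had an unadjusted p under 0.05, and the median log2 difference was 0.07. With ethanol, 4 of the 8 rose and 0 fell in livers labelled knockout, and 3 rose and 0 fell in wild-type livers. Among all genes, 10.2% rose and 9.01% fell in livers labelled knockout, and 18.9% rose and 19% fell in wild-type livers. Wnt9b, a ligand of central vein endothelium, had 52.3 ± 24.2 normalised reads after ethanol against 9.70 ± 5.38 on the control diet in livers labelled knockout, and 70.0 ± 21.7 against 8.21 ± 3.40 in wild-type livers. Wnt2, from the same endothelium, rose 2.41-fold in livers labelled knockout and 3.77-fold in wild-type livers, and Wnt5a 2.51-fold and 2.73-fold (limma adjusted p = 0.0038, 5.07e-05, 0.0038 and 0.000783). In livers labelled knockout, Wnt2 and Wnt5a were not called with ethanol libraries 1 and 2 alone, nor was Wnt5a without ethanol libraries 1 and 4. Porcn also rose in livers labelled knockout, 2.03-fold (limma adjusted p = 0.0165), a call lost in 5 of 20 alternatives. Rspo3, the R-spondin of the central vein, had 86.0 ± 10.8 normalised reads in livers labelled knockout and 108 ± 22.4 in wild-type livers after ethanol, and 65.1 ± 9.54 and 58.5 ± 7.56 on the control diet. Its rise was called in wild-type livers, 1.81-fold (limma adjusted p = 0.000825). Endothelial markers moved with these ligands: of 13 tested, 5 were higher and 0 lower after ethanol in livers labelled knockout and 8 higher and 1 lower in wild-type livers. Their summed level was 2991 to 3912 normalised reads in ethanol livers labelled knockout against 1941 to 2893 on the control diet, and 3697 to 4061 against 2060.4 to 2589 in wild-type livers. The part of endothelial RNA in the rise was not tested.

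Receptors and intracellular parts of the pathway were tested in the same fit. Between genotypes it called 9.88% of all genes on ethanol and 11.6% on the control diet. For ethanol it called 19.2% of all genes in livers labelled knockout and 38% in wild-type livers. Of 10 receptors and ligases tested, 0 were called between genotypes on ethanol by limma, edgeR or DESeq2, with 1 at an unadjusted p under 0.05. On the control diet 2 were lower, Fzd4 (0.588-fold, limma adjusted p = 0.0088) and Lrp6 (0.682-fold, limma adjusted p = 0.035), a Frizzled receptor and a co-receptor, and Lrp6 lost the call in 6 of 18 alternatives, among them leaving out any wild-type library or library 1 labelled knockout, with log2 differences of -0.62 to -0.39. After ethanol Lgr4, the other R-spondin receptor of hepatocytes, fell to 529.7 ± 104 normalised reads in wild-type livers, against 909 ± 28.8 on the control diet (limma adjusted p = 0.000387). The receptor list gave 2 higher and 0 lower after ethanol in livers labelled knockout, and 1 higher and 2 lower in wild-type livers. Among these, the fall of Fzd4 in wild-type livers lost its call in 11 of 20 alternatives, edgeR and the replicate block included. The rise of Lrp6 in livers labelled knockout lost its call in 6 of 21. The co-receptor Lrp5 was higher in both genotypes, 1.56-fold in livers labelled knockout and 1.66-fold in wild-type livers (limma adjusted p = 0.0126 and 0.00239). Of 10 genes of the beta-catenin destruction complex, 1 was called between genotypes on each diet. That gene was Apc, a scaffold of the complex, at 527 ± 42.7 normalised reads in ethanol livers labelled knockout and 709 ± 23.6 in wild-type livers, and 378 ± 63.1 against 526 ± 25.4 on the control diet (limma adjusted p = 0.0177 and 0.00745). The ethanol call for Apc was lost in 5 of 21 alternatives, among them without wild-type library 1, without library 3 labelled knockout and without libraries 1 and 4 labelled knockout together, with log2 differences of -0.48 to -0.39. With ethanol, 3 of these 10 were higher (Csnk1a1, Gsk3b and Apc) and 1 lower (Btrc) in each genotype, against 19.2% of all genes called in livers labelled knockout and 38% in wild-type livers. The kinase Gsk3b rose 1.39-fold in livers labelled knockout and 1.43-fold in wild-type livers, and the ubiquitin ligase subunit Btrc was at 0.764 and 0.685 times the control-diet level (limma adjusted p = 0.00387, 0.000767, 0.0304 and 0.00189). In livers labelled knockout the Csnk1a1 and Btrc calls were lost in 12 and 8 of 21 alternatives, each of them among others without ethanol libraries 1 and 4 labelled knockout, where the call of Lrp5 was lost too. Among the 6 TCF/LEF factors and coactivators tested, 0 were called between genotypes on either diet by limma, edgeR or DESeq2, with 2 on ethanol and 1 on the control diet at an unadjusted p under 0.05.

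The called genes among other feedback targets and antagonists were split in direction on ethanol. Of 6 tested there, 1 was higher and 1 lower in livers labelled knockout, against 6.13% and 3.75% of all genes. The median log2 difference of the 6 was -0.31, and DESeq2 called 3 of them. Tnfrsf19, a membrane receptor and Wnt target, had 107 ± 16.9 normalised reads in livers labelled knockout and 219 ± 57.9 in wild-type livers (limma adjusted p = 0.013). Dkk3, of the Dickkopf family, had 50.1 ± 10.5 and 29.1 ± 3.95 in the same order (limma adjusted p = 0.0439), a call lost in 12 of 20 alternatives, among them leaving out any ethanol library but library 1 labelled knockout, and leaving out libraries 1 and 4 labelled knockout together, with log2 differences of 0.54 to 0.95. Tnfrsf19 was not called without libraries 1 and 4 labelled knockout or with either pair of ethanol libraries alone, with log2 differences of -1.19 to -0.88 over all alternatives. The Wnt deacylase Notum, which inactivates Wnt proteins, had 312 ± 65.0 normalised reads in livers labelled knockout and 521 ± 91.3 in wild-type livers on ethanol and was not called (limma adjusted p = 0.056). On the control diet 1 of the 6 was higher and 0 lower, against 6.4% and 5.24% of all genes. That gene was Dkk3, at 1.82-fold (limma adjusted p = 0.0192), a call lost in 3 of 17 alternatives.

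Pericentral genes outside the 10 were mostly lower where called. Of 18 other pericentral genes tested, 9 were lower and 0 higher in livers labelled knockout on ethanol, with a median log2 difference of -0.56. Leaving out 1 library at a time gave 6 to 8 called genes there, against 9 with all libraries. On the control diet 7 were lower and 1 higher, with a median of -0.49, and leaving out 1 library at a time gave 6 to 8 called genes. By the same call, 3.75% of all genes were lower and 6.13% higher on ethanol, and 5.24% and 6.4% on the control diet. Cyp2c37 and Cyp2c29, cytochromes P450 of fatty acid and drug oxidation, had 1327 ± 395 and 16106 ± 6381 normalised reads in ethanol livers labelled knockout, against 8618 ± 1156 and 58346 ± 7577 in wild-type livers. Avpr1a, the hepatocyte vasopressin receptor, had 158 ± 44.1 and 521 ± 97.4 in livers labelled knockout and wild-type livers. The limma adjusted p was 1.21e-07 for Cyp2c37, 0.000275 for Cyp2c29 and 7.91e-05 for Avpr1a. Cyp2a5, a coumarin hydroxylase, was the gene higher on the control diet, at 10176 ± 4113 in livers labelled knockout and 2406 ± 271 in wild-type livers (limma adjusted p = 2.79e-05). After ethanol it had 9818 ± 698 and 17440.0 ± 4290.3 (limma adjusted p = 0.0399), and this call of a lower level was lost in 12 of 21 alternatives. The difference between the ethanol effects of Cyp2a5 was -2.79 on the log2 scale (limma adjusted p = 0.00264). When libraries 1 and 4 of the ethanol group labelled knockout were left out, or ethanol libraries 3 and 4 used alone, 5 pericentral genes were lower on ethanol and the Cyp2a5 difference was not called, though it stayed between -3.06 and -2.56 under all alternatives.

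Of 20 periportal genes tested, 4 were higher and 0 lower on ethanol, with a median log2 difference of 0.23. On the control diet 2 were higher and 1 lower, with a median of 0.05. The shares of all genes were 6.13% higher and 3.75% lower on ethanol, and 6.4% and 5.24% on the control diet. Aldh1b1, a mitochondrial aldehyde dehydrogenase, had 1320.0 ± 313 normalised reads in ethanol livers labelled knockout and 487 ± 76.9 in wild-type livers (limma adjusted p = 0.000182). Cyp2f2, a periportal cytochrome P450, had 16117 ± 1250.0 and 8848 ± 858 (limma adjusted p = 0.000682), and Cdh1, the E-cadherin of periportal hepatocytes, 727 ± 132 and 382 ± 77.3 (limma adjusted p = 0.00179). The remaining higher gene on ethanol (limma adjusted p = 0.0232) lost its call in 9 of 21 alternatives, among them without ethanol libraries 1 and 4 labelled knockout. With ethanol libraries 3 and 4 alone, Aldh1b1 and Cyp2f2 were not called, though their log2 differences stayed at or above 1.04 and 0.81 under all alternatives, and 1 periportal gene was higher and 1 lower. Whether the pericentral and periportal lists differ from each other was not tested.

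**Figure D4:**
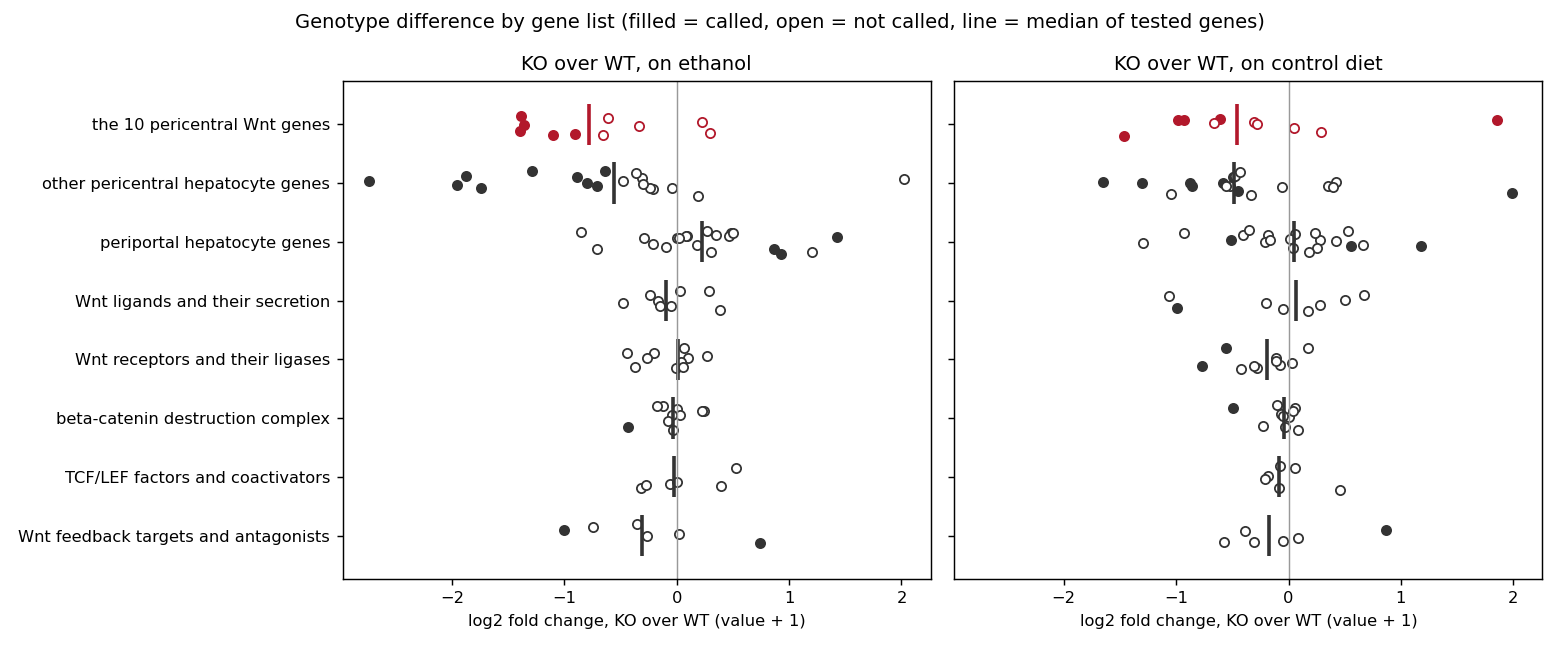
Log2 difference of KO (labelled knockout) over WT for each tested gene of the 10 pericentral Wnt genes and of 7 related lists, on ethanol at left and on the control diet at right. Filled points were called at a limma adjusted p under 0.05 and short lines are medians; the medians of both pericentral lists lie left of 0 on both diets, at -0.78 and -0.56 on ethanol.

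Targets of AHR were set beside Cyp1a2. After ethanol, 0 of 5 tested were called by limma in livers labelled knockout (1 each by edgeR and DESeq2, and 1 at an unadjusted p under 0.05), with a median log2 effect of 0.25. In wild-type livers 2 were higher and 1 was lower, with a median of 1.21, among them Cyp1b1 at 5.44-fold (limma adjusted p = 0.000127). Among all genes, 19.2% were called after ethanol in livers labelled knockout and 38% in wild-type livers. The median difference between the ethanol effects of the 5 was -1.33. Of the 5 on ethanol, 0 were called between genotypes by limma, edgeR or DESeq2, and 0 had an unadjusted p under 0.05. On the control diet 2 were higher and 0 lower, against 6.4% and 5.24% of all genes. Nqo1, a quinone reductase that NRF2 also induces, had 217 ± 47.8 normalised reads in livers labelled knockout and 61.9 ± 9.43 in wild-type livers on the control diet (limma adjusted p = 2.02e-06), and 257 ± 44.2 and 233 ± 32.5 after ethanol (limma adjusted p = 0.687). The difference between its ethanol effects was -1.65 on the log2 scale (limma adjusted p = 0.0105), and this call was lost when ethanol libraries 3 and 4 were used alone, and also without libraries 1 and 4 of the ethanol group labelled knockout, while the difference stayed between -1.84 and -1.46 under all alternatives. Cyp1a1 was low in all groups, at 9.98 ± 1.54 normalised reads in ethanol livers labelled knockout and 18.7 ± 8.49 in ethanol wild-type livers.

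Markers of other cell types also differed between genotypes. Of 13 Kupffer cell and macrophage markers tested, 13 were higher on ethanol in livers labelled knockout and 8 were higher on the control diet. Limma called 6.13% of all genes higher and 3.75% lower on ethanol, and 6.4% and 5.24% on the control diet. The summed level of these 13 markers was 6532 to 8316 normalised reads in ethanol livers labelled knockout and 1209 to 1792 in ethanol wild-type livers, and 7568 to 12010.0 against 3224 to 7312 on the control diet. Hepatocyte markers summed to 1035365 to 1513662 normalised reads in ethanol livers labelled knockout and 1352034 to 1949269.5 in wild-type livers, and to 1216483 to 1273969 against 1498575 to 1782729.5 on the control diet. Of the 9 hepatocyte markers, 1 was lower on ethanol by limma, with a median log2 difference of -0.41. There 1 was called by edgeR and 3 by DESeq2, with 5 at an unadjusted p under 0.05. On the control diet 0 were called by limma, 1 by edgeR and 3 by DESeq2, with 3 at an unadjusted p under 0.05 and a median of -0.28. The part of these shifts in the lower pericentral levels was not tested. Of 13 endothelial markers, 0 were called between genotypes on either diet by limma, with 1 on each diet at an unadjusted p under 0.05, 0 by edgeR, and 1 by DESeq2 on the control diet. Of 10 stellate cell markers, limma called 3 higher and 1 lower on ethanol, and 1 higher and 1 lower on the control diet. Of 4 lymphocyte and neutrophil markers tested, 1 was higher on ethanol and 2 on the control diet, with 0 lower. Among 5 cholangiocyte markers tested, 0 were called on ethanol and 1 was higher on the control diet.

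Across all 16 libraries the gene most like Glul was Glns-ps1, a pseudogene of Glul on chromosome 11, with a Pearson correlation of 0.967 of log2 values. It had between 2.30% and 3.41% of the Glul value in each library. Pseudogenes can share reads with their parent gene, and whether these do was not tested. The next were Fetub (0.908), Serpinf2 (0.901) and Pitpnb (0.900). For Axin2, chosen after its values were seen, they were Mllt11 (0.909) and Plxnd1 (0.859). These libraries share group differences and the correlations are descriptions over 16 libraries.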

How the data were processed

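Trizol extraction of RNA from snap-frozen liver was followed by 75 bp single-read Illumina sequencing, per the labels' protocols. GRCm38, HISAT2 2.1.0.13, HTSeq and edgeR are named in the submitters' processing notes. Not given in the sources used here are the annotation release, the strand setting and the tool behind the size factors. The deposited table holds a normalised signal for every gene in each library, which the authors made by dividing reads by a size factor. In each library 100% of the values came out as whole reads within 0.01 of a read after division by that library's step, so whole reads were recovered and used for edgeR 4.0.16 and DESeq2 1.42.0 as alternatives. Size factors were 0.814 to 1.26. In every library they matched, to within 1.5e-10, median-of-ratios factors computed here from the recovered reads. Such a factor is the median over genes of a library's reads divided by the gene's geometric mean. Of 27288 identifiers, 27242 were matched to GENCODE M21 on GRCm38. No pair of libraries within a group looked like a duplicate (mean chi-square per gene 11.1 to 121).

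The log2(value + 1) values were fitted in limma 3.58.1 (R 4.3.3) with a mean-variance trend, keeping 13256 genes whose mean was at least 10. A single fit of the 4 group means gave 5 contrasts, the genotype effect by diet, the ethanol effect by genotype and their interaction. A call is an adjusted p under 0.05 by the Benjamini-Hochberg method across all tested genes. Fold changes on this scale understate changes of low genes. Intervals are 95% intervals from the fit. Tools were tested on simulated data before use. The 10 genes and the lists were chosen with earlier results of these data known. Genes named are the 10, up to 3 called genes a list and contrast by smallest p, any gene of the Wnt lists, and the 5 genes most like Glul, of which 1 is not reported here; Dnm1l, Glns-ps1, Tbx3os1, Fgfr2, Nkx1-2, Cyp1a1 and the genes like Axin2 are outside that rule. Same-numbered ethanol libraries of the 2 genotypes deviated together, with correlations of 0.102 to 0.246 in 4 of 4 pairs, as did other numbers within libraries 1 and 2 or 3 and 4 (0.0975 to 0.199). The pairing comes from the data alone, and no other comparison showed it. Alternatives were the pseudocount, the filter, the trend, the groups fitted, TMM factors, edgeR, DESeq2, the replicate block and leaving out libraries.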

Additional observations from a re-analysis of the deposited data

Results flagged for a closer look

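Cyp1a2 in ethanol library 1 labelled knockout, at 4493 normalised reads, stood apart from the other 3 libraries of its group by more of the group's range than Dixon's 95% critical value for 4 samples. It was the only 1 of 40 combinations of gene and group that did so, where chance flags about 1 in 20. The same library held pancreatic transcripts, and their part in the value was not tested.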

How the results depend on the processing

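Of 1080 values of the 10 genes under alternatives, 1026 kept the call or stayed uncalled, 27 lost the call, 26 gained it and 1 reversed, Axin2 after ethanol in wild-type livers, at -0.74 (log2) with ethanol libraries 1 and 2 alone. Of the 757 of these that were uncalled both ways, 41 changed sign. Leaving out 1 library at a time gave 922 to 1360 called genes and 3 to 5 of the 10 for genotype on the control diet, against 1544 and 5; 848 to 1685 and 5 to 6 for genotype on ethanol, against 1310 and 5; 4251 to 5026 and 3 to 6 for ethanol in wild-type livers, against 5032 and 4; 1745 to 2947 and 0 to 1 for ethanol in livers labelled knockout, against 2543 and 1; and 8 to 215 and 0 to 2 for the difference of the ethanol effects, against 46 and 0. Without ethanol libraries 1 and 4 labelled knockout, 496 genes were called for genotype on ethanol, 1003 for ethanol in livers labelled knockout, with 0 of the 10, and 0 for the difference. With ethanol libraries 3 and 4 alone the counts were 434 for genotype on ethanol, 3164 for ethanol in wild-type livers, 1370 in livers labelled knockout, with 3 of the 10, and 0 for the difference. Ethanol libraries 1 and 2 alone gave 8 of the 10 and 4861 of 13256 genes for ethanol in wild-type livers, 4 of the 10 and 2108 genes in livers labelled knockout, and 264 genes and 2 of the 10 for the difference. For ethanol in livers labelled knockout, 2 of the 10 and 2365 genes were called with only the groups compared, and 2 of the 10 and 3028 genes with DESeq2. The difference was called for 16 genes with no trend, 24 with the replicate block, 30 with edgeR and 265 with DESeq2, which called 2 of the 10. The cause of these changes was not tested beyond the fewer libraries. With the replicate block, genotype on ethanol gave 1228 genes and 5 of the 10, and the block changed no call of the 10. TMM factors, chosen after seeing the data as were the choices of ethanol libraries, moved the median of all genes by less than 0.1 (log2). Low counts limit Lgr5 and Rhbg.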
